A study of Homo sapiens with 16 samples.

Results

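The genes described here encode the lysosomal machinery that switches on mTORC1: the Ragulator subunits LAMTOR1, LAMTOR2, LAMTOR3, LAMTOR4 and LAMTOR5, the small GTPases RRAGA and RRAGC, and the kinase MTOR with its partner RPTOR. They are 9 of the 60669 genes in the deposited tables, found by symbol, and each occurs in both tables. The set was selected on a measured value: LAMTOR5 had the most negative log2 fold change of the 5264 genes averaging 50 normalized counts or more in the authors' deposited table for the poly(A) libraries, and the other 8 were added as its partners. That contrast is therefore given as a description, and tests are given only for the other library type, although its results were also known when the genes were chosen.

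The cells were HMC3, an established human line labelled as microglial, either wild type or labelled METTL3 knockout. METTL3 is the catalytic subunit of the complex that writes N6-methyladenosine on RNA. Poly(A) RNA was made into Smart-seq2 libraries, 5 per genotype, and total RNA depleted of ribosomal RNA was made into strand-specific libraries, 3 per genotype, in each case from 100 ng of RNA. No treatment is named for either genotype, and the labels do not say whether the knockout is 1 clone, which part of METTL3 was changed or whether replicates were separate cultures, so p-values measure only the spread between these samples, which may be technical.

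Ragulator is a scaffold anchored in the lysosomal membrane by LAMTOR1, which wraps around a pair of heterodimers, LAMTOR2 with LAMTOR3 and LAMTOR4 with LAMTOR5. It holds a Rag heterodimer, RRAGA or RRAGB with RRAGC or RRAGD, on the lysosome. When amino acids are plentiful the Rags bind RPTOR and so bring the kinase MTOR to the lysosome, where RHEB activates it. In microglia, as in other phagocytes, this pathway links lysosomal content to growth and metabolism, and Ragulator also joins BORC, the complex that positions lysosomes.

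The deposited TPM (a library's transcripts scaled to a common total, a level per transcript length) corresponded to 266130 to 487243 reads in the wild-type rRNA-depleted libraries and 512597 to 1267177 in the knockout-labelled ones, so depth differed with genotype and its part in the results was not tested. A chi-square test of reads found no difference beyond sampling noise at 0.05 between knockout-labelled libraries 1 and 2 (chi-square per degree of freedom 1.02, p = 0.065), while the other pairs of a genotype differed (1.16 to 1.54). These 2 libraries were counted as 1 sample, which does not show that they are the same library. All group values are thus means ± SD over n = 3 wild-type and n = 2 knockout-labelled samples. METTL3 itself was at 31.2, 31.6 and 25.4 TPM in wild-type and 39.2, 40.0 and 42.7 TPM in knockout-labelled libraries. It was not lower under the knockout label, and the exact two-sided permutation p was 0.2, the smallest this design allows. Of 12 microglia and macrophage markers, 8 were at 0 in all 6 libraries, including P2RY12, TMEM119, CX3CR1 and AIF1, and the summed level of the 12 was 3.44 to 7.02 TPM. The 8 fibroblast and mesenchymal markers summed to 11650 to 14080 TPM in wild-type and 5624 to 5722 TPM in knockout-labelled libraries, with POSTN at 0. This sum followed COL1A1 (9612 to 11990 and 749 to 865 TPM), while VIM (446 to 521 and 2157 to 2306 TPM), FN1 and THY1 went the other way, and of 6 markers tested in limma 3 were higher and 3 lower. The markers of neurons summed to 3.20 to 6.38 and 12.3 to 12.8 TPM, with RBFOX3 at 0, and those of astrocytes to 1.31 to 5.62 and 3.86 to 4.03 TPM, with AQP4 and SLC1A2 at 0. The part of these differences in the results below was not tested.

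The stretches upstream of 4 members are shown because LAMTOR4, LAMTOR1 and RRAGC are the members whose promoters hold CACGTG, the core of the E-box bound by the lysosomal regulators TFEB, TFE3 and MITF, and because LAMTOR5, the gene the set was built on, does not hold it. Sequences are from RefSeq on GRCh38.p14, 5′ to 3′ on the strand of the gene, with the match in capitals. They start 250 bases before the RefSeq start and stop at the first annotated base of the gene in GENCODE 29, or at the end of a match that crosses it.
LAMTOR4 (chr7:100148668-100148909, plus strand): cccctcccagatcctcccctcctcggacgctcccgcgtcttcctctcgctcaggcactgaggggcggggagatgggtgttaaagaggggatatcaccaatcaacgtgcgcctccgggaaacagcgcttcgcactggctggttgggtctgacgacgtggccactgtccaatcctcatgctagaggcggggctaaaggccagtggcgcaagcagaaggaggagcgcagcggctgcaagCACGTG
LAMTOR1 (chr11:72103388-72103547, minus strand): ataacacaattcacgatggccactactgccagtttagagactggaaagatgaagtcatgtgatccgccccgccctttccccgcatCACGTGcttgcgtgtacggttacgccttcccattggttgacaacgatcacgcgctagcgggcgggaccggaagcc
RRAGC (chr1:38859824-38860022, minus strand): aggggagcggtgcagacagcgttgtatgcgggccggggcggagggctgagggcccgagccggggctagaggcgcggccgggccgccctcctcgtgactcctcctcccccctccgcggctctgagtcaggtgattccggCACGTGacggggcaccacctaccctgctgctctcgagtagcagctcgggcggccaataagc
LAMTOR5 (chr1:110407943-110408174, minus strand): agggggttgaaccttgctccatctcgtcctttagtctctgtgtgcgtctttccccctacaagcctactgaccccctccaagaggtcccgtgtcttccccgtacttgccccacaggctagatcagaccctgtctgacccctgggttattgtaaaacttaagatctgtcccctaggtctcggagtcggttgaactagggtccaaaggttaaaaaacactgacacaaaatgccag

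Of the 9 members, 8 had an entry in the promoter table, and RRAGA was not analysed here. CACGTG, which reads the same on both strands, was present in the 250 bases before the start of 3 of these 8, against 7.73% of 27305 genes. The first base of the match lay 14 bases before the start in LAMTOR4, 165 in LAMTOR1 and 112 in RRAGC. LAMTOR4 and LAMTOR1 were lower in knockout-labelled rRNA-depleted libraries and RRAGC was higher, so members with the motif did not share a direction.

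In the rRNA-depleted libraries the genotypes differed most in LAMTOR4, whose level was 11.8-fold lower under the knockout label. LAMTOR1 was also lower, while RRAGA, RRAGC and MTOR were higher. All 9 members could be tested, and 5 had an adjusted p under 0.05 in limma, against 35.3% of 14789 genes. The 3 that rose stand beside 22.9% of genes called higher, and the 2 that fell beside 12.4% called lower. Of those that rose, RRAGC reached the minimum level for testing only through the group in which it was high. The median log2 change of the members was 0.75, and that of all genes tested was 0.41. Because the median gene lay above 0, changes are also given relative to it. Under median ratio scaling the median gene was at 0.11, and the share of calls that were higher was 48.6% in place of 64.8%. In that setting 3 members were called, beside 4863 of 14789 genes, LAMTOR1 and LAMTOR4 as lower and RRAGA as higher.

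**Figure D1:**
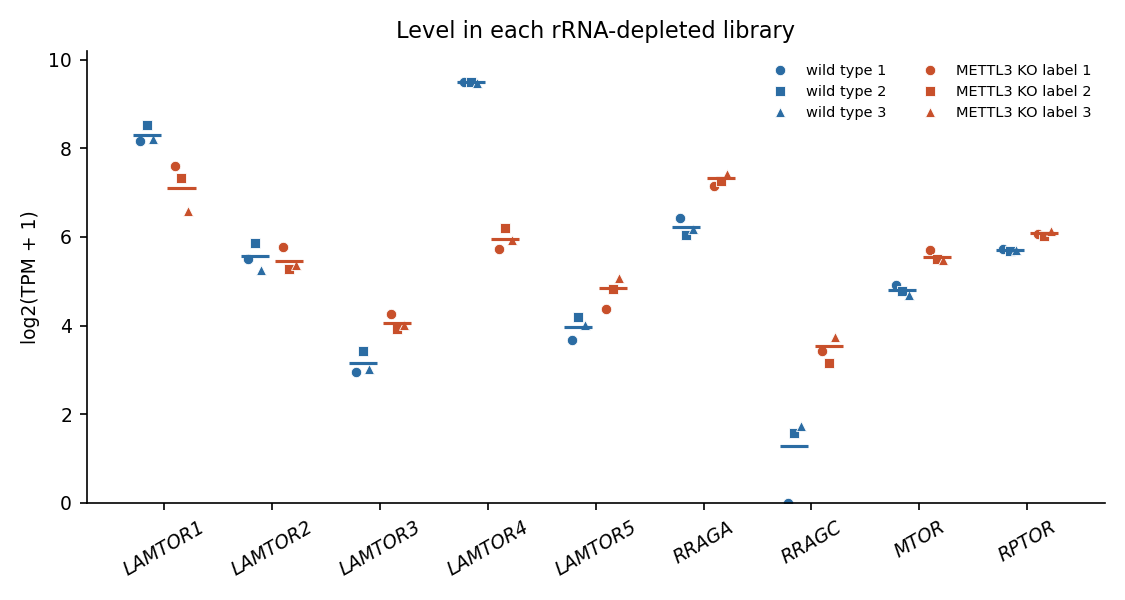
Level of each member in each rRNA-depleted library as log2(TPM + 1), blue for wild type and orange for the METTL3 knockout label, with symbols for libraries 1 to 3 and bars at the log2 of the group mean plus 1. LAMTOR4 lay at 705 to 724 TPM in wild-type and 51.9 to 72.2 TPM in knockout-labelled libraries, and LAMTOR2 was the member whose groups overlapped.

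Among the Ragulator subunits, LAMTOR4, which pairs with LAMTOR5, was measured at 724, 722 and 705 TPM in wild type, in replicate order as throughout, and at 51.9, 72.2 and 60.04 TPM under the knockout label. The wild-type libraries were nearly equal, every knockout-labelled library was far below them, and the groups did not overlap. The mean was 717 ± 10.5 against 61.0 ± 1.42 TPM, a log2 change (limma) of -3.53 with SE 0.09 and adjusted p = 0.0004, or -3.94 relative to the median gene. The values rested on 135 to 228 reads per wild-type library and 18 to 51 per knockout-labelled library. The call held in all 17 alternative settings, with log2 changes from -3.88 to -3.38. LAMTOR4 ranked 138 from the lowest among 3246 genes averaging 50 TPM or more, so changes of this size were not particular to it.

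LAMTOR1, the membrane anchor, was at 286, 369 and 295 TPM in the wild type, and its knockout-labelled values were 193, 161 and 95.3 TPM. The groups did not overlap, and knockout-labelled library 3 was the lowest. The mean fell from 316 ± 45.5 to 136 ± 57.7 TPM, which in limma was a log2 change of -1.27 (SE 0.29, adjusted p = 0.0232), or -1.68 relative to the median gene. Without knockout-labelled library 3 the change was -0.83 and the limma adjusted p was 0.105, and without any 1 of the wild-type libraries the adjusted p was between 0.0508 and 0.0557.

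LAMTOR2, partner of LAMTOR3, was at 44.3, 57.6 and 37.5 TPM in wild-type and 53.6, 38.1 and 40.4 TPM in knockout-labelled libraries. The groups overlapped, with a limma log2 change of -0.09 (SE 0.23, adjusted p = 0.795), and the sign turned without wild-type library 2 or knockout-labelled library 2 or 3. LAMTOR3 was at 6.70, 9.79 and 7.08 TPM in wild-type and 18.2, 14.3 and 15.3 TPM in knockout-labelled libraries. Its groups did not overlap, but 4 to 5 reads per wild-type library lay behind the values and the log2 change of 0.94 (SE 0.34) did not pass the limma threshold (adjusted p = 0.0874). With the trend on GC content removed the LAMTOR3 value was -0.18.

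LAMTOR5, the gene on which the set was selected, was at 11.9, 17.3 and 15.04 TPM in wild-type and 19.7, 27.5 and 32.5 TPM in knockout-labelled libraries. Every knockout-labelled library was above every wild-type library. The log2 change was 0.88 (SE 0.29, limma adjusted p = 0.0682), or 0.47 relative to the median gene, and did not pass the threshold. The adjusted p was between 0.0402 and 0.572 over the 17 alternatives, of which 3 passed and none turned the sign.

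In the authors' deposited table for the poly(A) libraries, LAMTOR5 had a log2 fold change of -2.72 (SE 0.21) at a mean of 73.1 normalized counts, a level 6.57-fold lower with the knockout label. That table does not state its numerator, and positive values were taken as higher in knockout. Under this reading 162 of 177 genes (91.5%) had the same sign, counting those whose log2 change was 1 or more in size and whose adjusted p was under 0.05 in both library types, and otherwise every poly(A) direction would be opposite. LAMTOR5 had 14 of 1161244 wild-type reads and 50 of 2818336 knockout-labelled reads, a ratio of 1.47 with an exact 95% interval of 0.801 to 2.88. The poly(A) ratio, on which the gene was chosen, was 0.152 in the authors' deposited table. For LAMTOR4 the read ratio was 0.0727 (0.0581 to 0.0902), and the ratio from its log2 fold change of -0.28 (SE 0.18) in the authors' deposited table was 0.823. These intervals cover counting error only. The difference between library types was not tested, because the poly(A) table holds no value for a single library.

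**Figure D2:**
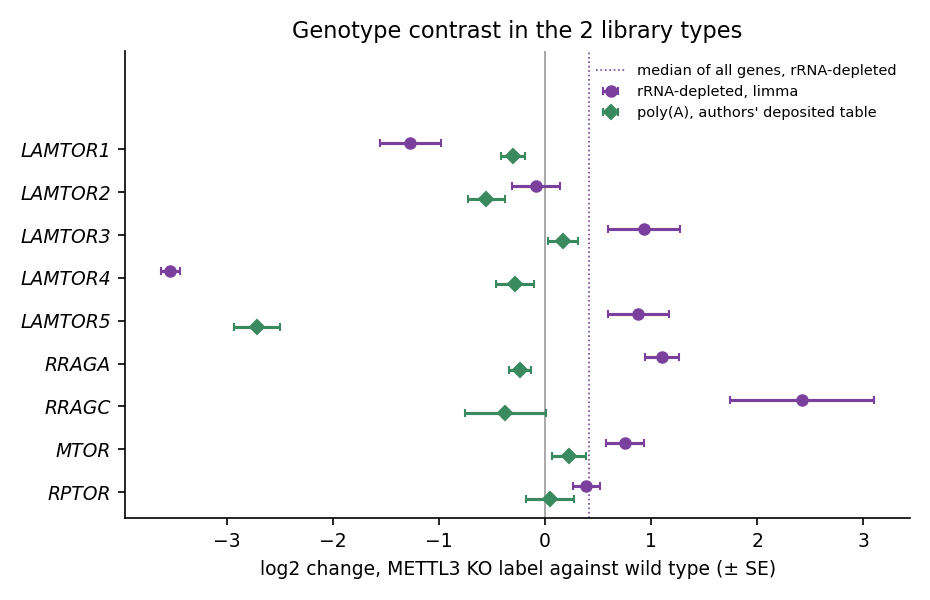
Log2 change under the METTL3 knockout label against wild type, with its SE, for each member in the rRNA-depleted libraries (circles, limma) and in the authors' deposited poly(A) table (diamonds); the dotted line is the median of all genes in the rRNA-depleted fit. LAMTOR5 is lowest in the poly(A) table at -2.72 and lies at 0.88 in the rRNA-depleted libraries, where LAMTOR4 is lowest at -3.53.

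Genes that overlap these subunits were measured at lower levels than the subunits. LAMTOR5 lies on chromosome 1 at 110401249 to 110407942 on the minus strand (GENCODE 29, GRCh38), within the span of the antisense RNA LAMTOR5-AS1, which was at 0 to 5.01 TPM in the 6 libraries and at a mean of 0.964 normalized counts in the authors' deposited table. LAMTOR4 lies on chromosome 7 at 100148907 to 100155944 on the plus strand, and its end overlaps TRAPPC14 on the opposite strand. TRAPPC14 was at 28.3, 38.2 and 44.1 TPM in wild-type and 26.8, 27.8 and 23.8 TPM in knockout-labelled libraries. Whether the counting used strand is not given in the sources used here, so reads in an overlap cannot be assigned with certainty. The processed pseudogenes LAMTOR3P1, LAMTOR3P2, LAMTOR5P1 and RRAGAP1 were listed at 0 in all 6 libraries.

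The make-up of Ragulator mRNA shifted with these changes. The 5 subunits together were at 1073, 1175 and 1060 TPM in wild-type and 336, 313 and 243 TPM in knockout-labelled libraries. LAMTOR4 supplied 65.2% ± 3.28 of this sum in wild-type and 22.0% ± 3.82 in knockout-labelled samples, and LAMTOR1 28.6% ± 2.47 and 46.8% ± 10.8. LAMTOR5 went from 1.33% ± 0.199 to 10.3% ± 4.25 of the sum. The sum itself went from 1103 ± 63.1 to 284 ± 57.4 TPM. The level of LAMTOR5 was 14.75 ± 2.75 and 28.0 ± 6.27 TPM, a change that did not pass the limma threshold. The most abundant subunit exceeded the least abundant 93.8-fold ± 17.9 in wild-type and 8.58-fold ± 3.32 in knockout-labelled samples. This was LAMTOR4 over LAMTOR3 in wild-type and LAMTOR1 over LAMTOR3 in knockout-labelled libraries. The smaller ratio went with the fall of LAMTOR4 from 717 to 61.0 TPM. LAMTOR3 rested on 4 to 5 reads per wild-type library and its change did not pass the limma threshold, so no general convergence of the subunits is read from the ratio. For the poly(A) libraries, levels are the authors' mean count divided by gene length and pooled over genotypes, so they give no order within a genotype. LAMTOR1 had 91.7 normalized counts per kb, LAMTOR2 40.4, LAMTOR4 34.2, LAMTOR5 30.6 and LAMTOR3 21.9 in the authors' deposited table. The pooling matters most for LAMTOR5, which was 6.57-fold lower with the knockout label in that table.

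**Figure D3:**
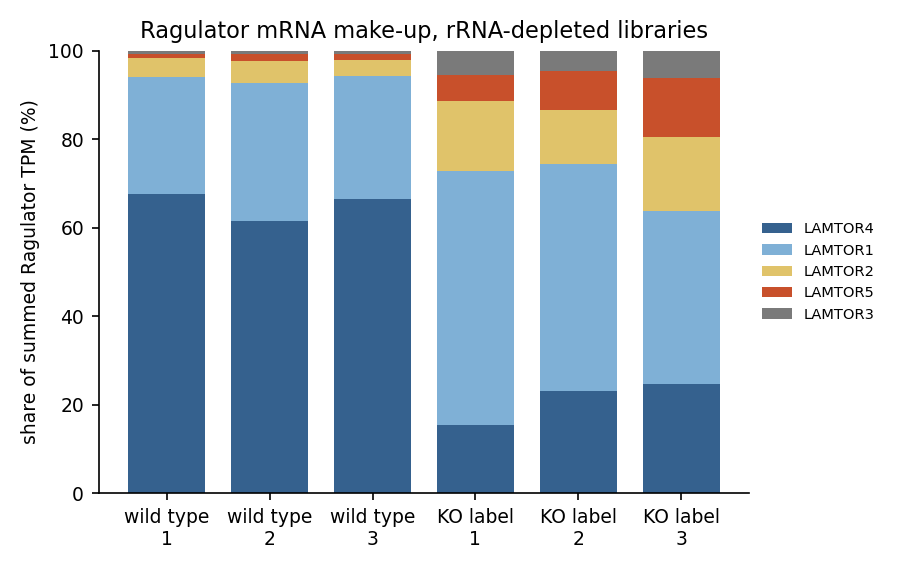
Share of the summed Ragulator TPM (%) supplied by each of the 5 subunits in each rRNA-depleted library. LAMTOR4 makes up 61.4% to 67.5% in wild-type and 15.4% to 24.7% in knockout-labelled libraries.

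Both Rag GTPases were higher in knockout-labelled rRNA-depleted libraries. RRAGA, which binds RPTOR when loaded with GTP, was at 84.7, 65.1 and 71.6 TPM in wild-type and 141, 153 and 171 TPM in knockout-labelled libraries. The groups did not overlap, and the log2 change was 1.10 (SE 0.16, limma adjusted p = 0.00667), or 0.69 relative to the median gene. Without knockout-labelled library 3 the limma adjusted p was 0.0792 at a log2 change of 0.996. The single-exon RRAGA gene lies on chromosome 9 at 19049395 to 19050983. The next gene, HAUS6, a subunit of the augmin complex of the mitotic spindle on the opposite strand, lies 2160 bases away and rose by 1.12 on the log2 scale (SE 0.20, limma adjusted p = 0.0122).

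RRAGC, the partner of RRAGA, was at 0, 2.003 and 2.32 TPM in wild-type and 9.73, 7.95 and 12.5 TPM in knockout-labelled libraries. It was higher in every knockout-labelled library, but the wild-type values rested on 0, 1 and 2 reads. The 3 wild-type and 40 knockout-labelled reads gave a ratio of 5.49 per read sequenced, with an exact 95% interval of 1.75 to 27.8. With wild-type library 1 at 0, RRAGC reached the minimum for testing, 1 TPM in 3 libraries, only through the group in which it was high. The limma adjusted p was 0.0437, and without the filter on level it was 0.101. It was above 0.05 in 7 of 17 alternatives. Among these were the fits without wild-type library 2 (limma adjusted p = 0.0567), wild-type library 3 (0.0556) and knockout-labelled library 3 (0.227). In the authors' deposited table RRAGC and RRAGA had log2 fold changes of -0.38 (SE 0.38) and -0.24 (SE 0.11), neither with an adjusted p under 0.05, so that the sign differed from the rRNA-depleted libraries for both.

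Of the mTORC1 pair, MTOR, the kinase, was at 29.2, 26.5 and 24.7 TPM in wild-type and 51.4, 44.5 and 43.7 TPM in knockout-labelled libraries. The groups did not overlap, and the log2 change was 0.75 (SE 0.18, limma adjusted p = 0.026), or 0.34 relative to the median gene. The call was lost under median ratio scaling (0.41, limma adjusted p = 0.128), with the GC trend removed (0.54, 0.0755), over protein-coding TPM (0.57, 0.0568), and without wild-type library 3 (0.0581) or knockout-labelled library 3 (0.0903). RPTOR, which recruits substrates, was at 52.0, 50.7 and 51.0 TPM in wild-type and 66.04, 64.5 and 69.5 TPM in knockout-labelled libraries. Its groups did not overlap, yet the log2 change of 0.39 (SE 0.13, limma adjusted p = 0.0686) did not pass the threshold and was -0.02 relative to the median gene. Groups did not overlap in 8 of the 9 members, beside 62.7% of all genes tested.

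Within the wild-type libraries the order of levels per transcript length was LAMTOR4, LAMTOR1, RRAGA, RPTOR, LAMTOR2, MTOR, LAMTOR5, LAMTOR3 and RRAGC, and RPTOR and LAMTOR2 were the only neighbours whose ranges overlapped. Under the knockout label it was RRAGA, LAMTOR1, RPTOR, LAMTOR4, MTOR, LAMTOR2, LAMTOR5, LAMTOR3 and RRAGC, with overlap between RRAGA and LAMTOR1, RPTOR and LAMTOR4, and MTOR and LAMTOR2. LAMTOR4 thus moved from the highest to the fourth place. In bulk RNA, fewer cells of a type and less RNA per cell cannot be told apart.

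Of the 9 members, 3 in the authors' deposited table, LAMTOR1, LAMTOR2 and LAMTOR5, had an adjusted p under 0.05, beside 19.9% of 14009 genes, and all 3 were lower, beside 10.3%. The call of LAMTOR5 was fixed by the choice of the set, and without it 2 of 8 remained, so nothing is read from this count. LAMTOR1 had a log2 fold change of -0.30 (SE 0.11) and LAMTOR2 of -0.55 (SE 0.18) in the authors' deposited table. LAMTOR3 was at 0.17 (SE 0.14), MTOR at 0.22 (SE 0.16) and RPTOR at 0.04 (SE 0.22) in the authors' deposited table. LAMTOR1 was the member with an adjusted p under 0.05 and a negative sign in both library types. The signs differed in 3 members, LAMTOR5, RRAGA and RRAGC.

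Changes in the rRNA-depleted libraries followed the GC content of transcripts over all genes. The median log2 change was 1.24 in the lowest of 10 bins of GC content and -0.41 in the highest. LAMTOR4 (59.7% GC) lay far below its bin, whose median was -0.08 and lower quartile -0.78, and with the trend removed it was at -3.38 (limma adjusted p = 0.000262). LAMTOR5 (47.3% GC) went from 0.88 to 0.28 (limma adjusted p = 0.572) and RRAGC (44.9% GC) from 2.42 to 1.68 (limma adjusted p = 0.143). RPTOR (59.8% GC) passed the threshold with the trend removed, at 0.54 (limma adjusted p = 0.0353). The part of GC content in the members' changes was not otherwise tested.

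**Figure D4:**
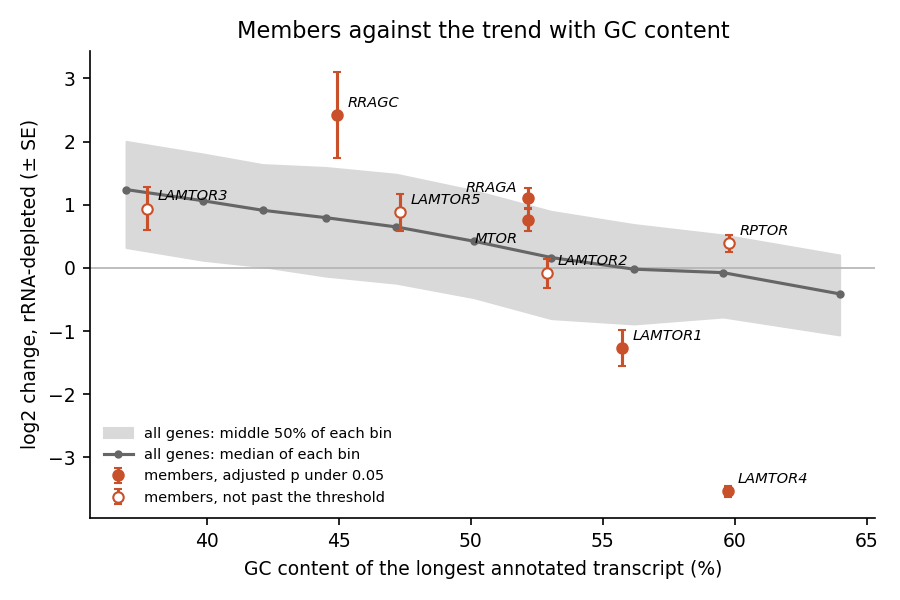
Log2 change in the rRNA-depleted libraries (± SE) against the GC content (%) of the longest annotated transcript, for the members (orange, filled where the limma adjusted p was under 0.05) over the median and middle 50% of all genes in bins of equal size. The bin medians run from 1.24 to -0.41, and LAMTOR4 at -3.53 lies farthest from them.

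GGACT, a common form of the sequence in which METTL3 methylates adenosine, was counted on the sense strand of the longest annotated transcript. RRAGC had 2.20 per kb, LAMTOR1 1.49, LAMTOR4 1.37, RPTOR 1.25, LAMTOR2 1.15, MTOR 1.04, RRAGA 0.629, LAMTOR5 0.546 and LAMTOR3 0.473, beside a median of 0.922 over 11784 coding genes. LAMTOR5 and LAMTOR3 lay below the lower quartile of 0.575, and RRAGC, LAMTOR1 and LAMTOR4 lay above the upper quartile of 1.359. A match is a description of the letters and not of methylation.

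The genes whose centred log2(TPM + 1) values over the 6 libraries were nearest to LAMTOR5 by Euclidean distance, among 11863 genes, were LFNG (0.144), ZNF343 (0.299), R3HCC1L (0.302), FAM161B (0.305) and SLC7A6OS (0.310). LFNG rested on 4, 4 and 6 reads in the wild-type libraries, the same numbers as LAMTOR5. None of these 5 had an adjusted p under 0.05 in the authors' deposited table, beside 19.9% of 14009 genes. LFNG averaged 2.39 normalized counts in that table, and nothing is read from a count over so few genes.

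Beyond the members, 85 other genes of the pathway were listed by role, and 81 could be tested in the rRNA-depleted libraries. Sizes of rises and falls of these genes are on the log2 scale. In limma 21 rose (25.9%) and 7 fell (8.64%), near the 22.9% and 12.4% of all genes, and their median change was 0.67, beside 0.41. Of 79 with an adjusted p in the authors' deposited table, 4 (5.06%) passed 0.05 as higher and 8 (10.1%) as lower, beside 9.55% and 10.3% of all genes, and their median was -0.02. The 7 that fell in the rRNA-depleted libraries had a GC content of 55.8% to 66.3%, and the 21 that rose had a median of 46.6%. With the GC trend removed 12 were higher and 7 lower, beside 1666 and 2219 of 14669 genes. Under median ratio scaling 13 were higher and 10 lower, beside 2364 and 2499 of 14789 genes. Of the 19 genes named below that passed the limma threshold, TTI1, TELO2 and ATP6V1C1 kept their call in all 17 alternatives, the other 16 lost it without knockout-labelled library 3, and 8 lost it with the GC trend removed.

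The V-ATPase, the proton pump that acidifies lysosomes and contacts Ragulator, had 7 of 16 genes higher (43.8%, beside 22.9% of all genes) and 0 lower in limma, with a median log2 change of 0.97. At an unadjusted p under 0.05 it had 8 higher and 1 lower, a cut for which no share of all genes is given here. Voom on the recovered reads called 9 higher and 2 lower, beside 3864 and 3509 of 14673 genes. ATP6V1C1 was at 15.7, 19.5 and 16.4 TPM in wild-type and 75.6, 75.4 and 68.4 TPM in knockout-labelled libraries, which was a limma log2 change of 2.01 (SE 0.19, adjusted p = 0.00254). ATP6V1F rose by 2.02 (SE 0.44, limma adjusted p = 0.0205), whereas in the authors' deposited table it was lower, at -0.41 (SE 0.14, adjusted p = 0.0185). With the GC trend removed 5 V-ATPase genes were higher and 1 lower, beside 1666 and 2219 of 14669 genes.

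Among other subunits and assembly factors of the mTOR complexes, 3 of 10 rose (30%, beside 22.9% of all genes) and 1 fell (10%, beside 12.4%). TTI1 and TTI2, of the TTT complex that helps MTOR to fold, rose by 1.70 (SE 0.16, limma adjusted p = 0.00261) and 2.23 (SE 0.46, limma adjusted p = 0.0186). TELO2, their partner in that complex, fell by 1.33 on the log2 scale (SE 0.14, limma adjusted p = 0.00317), so members of 1 complex moved in opposite directions. TTI2 averaged 4.47 TPM in wild-type libraries, on 4, 1 and 3 reads. It met the minimum mean of 5 TPM for naming only through the group in which it was high. TTI1 was at -0.35 (SE 0.08, adjusted p = 0.000439) in the authors' deposited table.

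Upstream of the Rags, GATOR1, which turns RRAGA off, had 0 of 3 genes past the limma threshold, beside 35.3% of all genes. At an unadjusted p under 0.05 it had 1, a cut without a share of all genes here, so nothing is read from it. Voom called 1, beside 7373 of 14673 genes. WDR24 of GATOR2, which restrains GATOR1, fell by 1.03 on the log2 scale (SE 0.23, limma adjusted p = 0.0222), as 1 of 5 (20%, beside 12.4% of all genes). With the GC trend removed WDR24 was at -0.63 (limma adjusted p = 0.117). KPTN of KICSTOR, the tether of GATOR1, fell by 1.43 (SE 0.27, limma adjusted p = 0.0147), as 1 of 4 (25%, beside 12.4% of all genes). Of the amino acid sensors 2 of 5 passed as higher (40%, beside 22.9% of all genes), SESN2 and SLC38A9. SESN2, a leucine sensor, had a change of 0.79 (SE 0.23, limma adjusted p = 0.0489), which was 0.45 under median ratio scaling (limma adjusted p = 0.219), and its call was lost in 11 of 17 alternatives. SLC38A9, the lysosomal arginine sensor, was at 0 to 2.71 TPM in wild-type libraries, on 1, 0 and 4 reads, and at 7.14 to 11.4 TPM in knockout-labelled ones (limma adjusted p = 0.0442). It met the minimum levels for testing and for naming only through the group in which it was high. Its call was lost in 8 of 17 alternatives, among them median ratio scaling (limma adjusted p = 0.0684) and removal of the GC trend (1.13, limma adjusted p = 0.248).

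In the folliculin complex, which acts on RRAGC, FLCN was lower and its partner FNIP1 higher. FLCN fell from 38.4, 28.6 and 44.0 TPM to 13.7, 18.8 and 12.5 TPM, a limma log2 change of -1.29 (SE 0.27, adjusted p = 0.0192). FNIP1 rose from 21.4, 13.03 and 14.3 TPM to 70.9, 70.0 and 45.5 TPM, a limma log2 change of 1.77 (SE 0.32, adjusted p = 0.0124). With the GC trend removed FNIP1 was at 0.73 (limma adjusted p = 0.102), past no threshold, and FLCN at -1.29 (limma adjusted p = 0.0174). FNIP1 was higher in the poly(A) libraries too, at 0.98 (SE 0.16, adjusted p = 1.99e-08) in the authors' deposited table.

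Of the mTORC1 substrates and effectors 5 of 13 rose (38.5%, beside 22.9% of all genes) and 1 fell (7.69%, beside 12.4%). RPS6KB1, the S6 kinase, was at 4.61, 1.35 and 5.45 TPM in wild-type and 29.6, 22.8 and 19.3 TPM in knockout-labelled libraries (log2 change 2.42, SE 0.58, limma adjusted p = 0.027). Its wild-type values rested on 5, 1 and 7 reads, and with the GC trend removed the change was 1.33 (limma adjusted p = 0.121). EIF4EBP1, the translation repressor, rose by 1.85 (SE 0.42, limma adjusted p = 0.023), and MAF1, the repressor of RNA polymerase III, fell by 0.95 on the log2 scale (SE 0.22, limma adjusted p = 0.0247). With the GC trend removed MAF1 was at -0.62 (limma adjusted p = 0.0564). In the AMPK and REDD1 list 2 of 8 rose (25%, beside 22.9% of all genes) and 1 fell (12.5%, beside 12.4%). PRKAG1 rose by 1.17 and PRKAB2 by 1.67, with values of 0.61 and 0.77 past no threshold once the GC trend was removed. PRKAB2 averaged 2.59 TPM in wild-type libraries, on 2, 1 and 3 reads. It met the minimum level for naming only through the group in which it was high. In the same list STK11, the kinase that activates AMPK, fell by 1.42 (SE 0.22, limma adjusted p = 0.00837). The TSC complex with RHEB had 0 of 4 past the limma threshold, beside 35.3% of all genes. It also had 0 at an unadjusted p under 0.05, a cut without a share of all genes here, so nothing is read from it. Voom called 1 higher and 1 lower, beside 3864 and 3509 of 14673 genes.

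In BORC 1 of 8 genes rose and 1 fell (12.5% each, beside 22.9% and 12.4% of all genes). BORCS6 fell from 27.5, 48.2 and 44.2 TPM to 11.7, 8.51 and 7.52 TPM, a limma log2 change of -2.03 (SE 0.33, adjusted p = 0.00913), and KXD1 rose by 0.57 (SE 0.16, limma adjusted p = 0.0418). KXD1 lost its call in 10 of 17 alternatives and was at 0.22 under median ratio scaling. Of the Rag GTPases outside the set, RRAGB and RRAGD, neither passed the limma threshold, beside 35.3% of all genes. Voom called neither, beside 7373 of 14673 genes. Neither had an unadjusted p under 0.05, a cut without a share of all genes here, so nothing is read from it. RRAGD, which can replace RRAGC, was the listed gene with a poly(A) change of 1 or more in size past 0.05, at 1.57 (SE 0.40, adjusted p = 0.00117) in the authors' deposited table. It had 1 wild-type and 10 knockout-labelled reads in the rRNA-depleted libraries, a ratio of 4.12 with an exact 95% interval of 0.586 to 179.

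**Figure D5:**
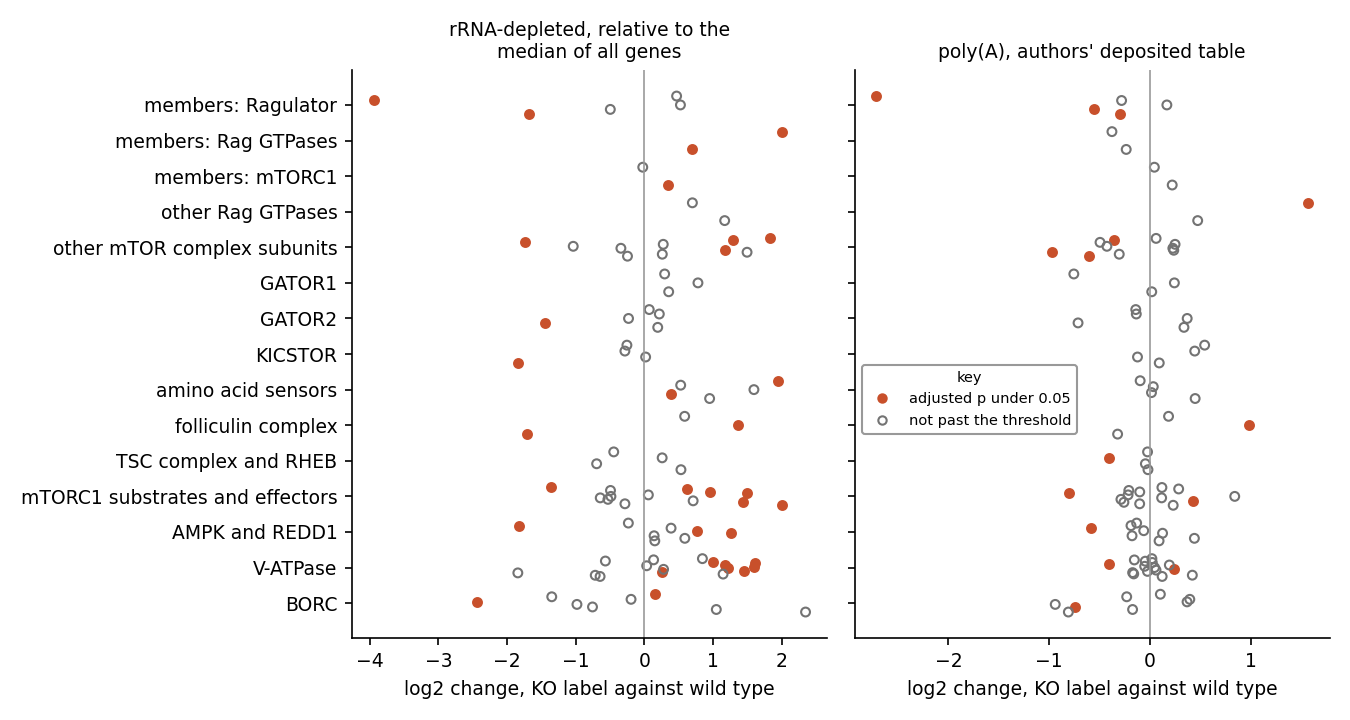
Log2 change under the METTL3 knockout label for the members and each list of other pathway genes, 1 point a gene, in the rRNA-depleted libraries relative to the median gene (left) and in the authors' deposited poly(A) table (right); filled points have an adjusted p under 0.05. LAMTOR4 (-3.94) is the lowest point on the left and LAMTOR5 (-2.72) on the right.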

How the data were processed

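RNA-seq of HMC3 cells was analysed from 2 deposited tables. The first table, as the authors deposited it, holds TPM for each of the 6 rRNA-depleted libraries. The other holds 1 comparison of the poly(A) libraries, with no value for a single library. Per the file headers its columns are the mean normalized count, a signal pooled over all samples, and the log2 fold change and its SE. Per the file headers it also has a test statistic (here a score) and the raw and adjusted p-value. These values were described and not retested. Trimmomatic, STAR, DESeq2 and hg38 are named per the submitters' processing notes, without versions or roles; the counter, its annotation and its strand setting are not given in the sources used here.

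Gene lengths, positions and GC content came from GENCODE 29, which matched 56927 of 60669 genes (93.8%). With these lengths 90.9% of TPM values above 0 were whole reads to within 0.02 reads, and the reads of each library and gene were taken from them; intervals are exact binomial and cover counting error only. Limma 3.58.1 in R 4.3.3 (lmFit, eBayes with trend) was run on log2(TPM + 1) for genes that reached 1 TPM in 3 or more libraries, with Benjamini-Hochberg adjustment over all of them at 0.05. On the log2(TPM + 1) scale, changes of weakly expressed genes come out too small. Libraries of a genotype were compared by a chi-square test over genes with at least 10 whole reads in the pair, and the limma step was tested on simulated data, where it missed most changed genes and its false calls were of genes averaging under 5 reads. The simulated reads varied little beyond counting noise, whereas most pairs of real libraries of a genotype differed by more. The outcome therefore does not vouch for the call of any member. Python 3.11.15, numpy 2.4.6, pandas 2.3.3, scipy 1.17.1 and matplotlib 3.10.9 were used for other steps.

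The members and the pathway lists were chosen with earlier results of these data known. Named genes outside the members are those of each list past the limma threshold whose genotypes do not overlap and whose mean is at least 5 TPM, at most 2 rising and 2 falling per list, list genes past 0.05 whose log2 fold change in the poly(A) table was 1 or more in size, and genes that overlap or neighbour a member. Alternatives were other pseudocounts, filters and scalings, removal of the GC trend, voom on the recovered reads, the 6 libraries as separate samples, a replicate block and leaving out each library; a minimum mean of 5 reads was a setting added after the data were seen.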

Additional observations from a re-analysis of the deposited data

How the results depend on the processing

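Of the 9 members, 5 passed the limma threshold in the rRNA-depleted libraries, 8 did with the 6 libraries as separate samples and 3 under median ratio scaling; leaving out 1 library at a time gave 1 to 6 members and 1663 to 5185 genes, in place of 5220 genes. The lowest values were without knockout-labelled library 3, which leaves 1 knockout-labelled sample, assumed to vary like the wild type; without wild-type library 2 or 3 the members called were 3 and 2. Deviations of same-numbered libraries from their genotype means had correlations of 0.02, -0.02 and 0.01. These cannot show whether replicates were paired, because knockout-labelled libraries 1 and 2 did not differ beyond sampling noise. The replicate block over 6 libraries called 5 members and 6037 genes. LAMTOR4 kept its direction and its call in all 17 alternatives. RRAGA lost its call in 1, LAMTOR1 in 4, MTOR in 5 and RRAGC in 7, each without a change of sign. LAMTOR2, not called in any, ranged from -0.23 to 0.08 when 1 library was left out, with 0.0771 without wild-type library 2, 0.0249 without knockout-labelled library 2 and 0.0033 without library 3. LAMTOR3 was at -0.18 with the GC trend removed; the cause was not tested. In the authors' deposited table, 3 members and 2782 genes became 1 and 1811 at an adjusted p under 0.01, and 1 and 647 when a log2 fold change of 1 or more in size was also asked; the 1 member left in each is LAMTOR5, on which the set was chosen, so 0 of the other 8 remained. Depth limits RRAGC, LAMTOR3 and LAMTOR5 most, with 3, 13 and 14 wild-type reads in all.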
